A study of Arabidopsis thaliana with 12 samples.

Results

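The 10 genes described here encode the cell-surface receptors and partner kinases with which Arabidopsis thaliana detects molecular patterns. They are FLS2 (AT5G46330), EFR (AT5G20480), PEPR1 (AT1G73080), PEPR2 (AT1G17750), BAK1 (AT4G33430), SERK4 (AT2G13790), SOBIR1 (AT2G31880), BIR1 (AT5G48380), BIK1 (AT2G39660) and PBL1 (AT3G55450). They were taken by these locus codes from a table of 24228 genes, and all 10 passed the filter on low counts that left 19652 genes to be tested. Messenger RNA was sequenced from rosette leaves in 12 libraries, 3 in each of 4 groups. The groups were a PAD4 knockout (pad4) given 2'cADPR, pad4 given water, wild type (accession Col-0) given 2'cADPR and wild type given water. PAD4 is a lipase-like protein that works with EDS1 downstream of intracellular TIR-domain immune receptors, and 2'cADPR is a cyclic ADP-ribose isomer produced by TIR domains. The question behind these groups was the function of 2'cADPR and its need for EDS1, PAD4 and ADR1. The sources used here give no dose, time after treatment, plant age, pad4 allele or pooling of leaves. No label says that the 3 libraries of a group came from separate plants, so the p-values measure the spread between these libraries, which may be technical.

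Pattern receptors with an ectodomain of leucine-rich repeats bind a ligand outside the cell and recruit a co-receptor of the SERK family. The paired kinases then activate receptor-like cytoplasmic kinases, which trigger a calcium influx, an oxidative burst and changes in transcription. In leaves this first layer of immunity is known to work together with the intracellular receptors that signal through EDS1 and PAD4.

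Libraries held 35.8 to 44.4 M counts, and levels are given as CPM, counts per M of the normalised library total, where M stands for mega. The targeted gene followed the labels: PAD4 had 3.02, 2.52 and 4.80 CPM in the pad4 2'cADPR libraries, 3.14, 2.94 and 5.51 CPM in the pad4 water libraries, 548, 589.6 and 518 CPM in the wild-type 2'cADPR libraries and 75.0, 63.9 and 66.8 CPM in the wild-type water libraries. The 6 pad4 libraries lay below all 6 wild-type libraries, with a mean difference of -5.60 on the scale of log2(CPM + 0.5) (exact two-sided permutation p = 0.00216, 6 libraries against 6). All 4 leaf mesophyll markers were present, none at 0. Their summed level was 29217 to 31123 CPM in pad4 after 2'cADPR, 30672 to 32639 CPM in pad4 after water, 17100 to 19859 CPM in wild type after 2'cADPR and 27712 to 35099 CPM in wild type after water. The 7 markers of epidermis, guard cells and vascular tissue, none at 0, summed to 312 to 320.1 CPM, 298 to 329 CPM, 268 to 281 CPM and 332 to 342 CPM in the same order of groups. Of 4 markers of flower, seed and root, 3 were in the table, none at 0, and their sums reached at most 3.63 CPM, in pad4 after water, with 2.68 to 3.14, 2.93 to 3.63, 0.767 to 0.921 and 1.38 to 1.83 CPM in that order. The sums cover unlike members. In wild type after 2'cADPR against water, 3 of the 4 mesophyll markers were called lower (called as defined below) and LHCB2.1 was not. Of the 7 epidermis, guard cell and vascular markers 2 were called lower and 1, KAT1 of guard cells, higher. Of all tested genes 34.6% were called in each direction. The part of these marker shifts in the results below was not tested, and in whole leaves fewer cells of a type and less RNA per cell cannot be told apart.

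After 2'cADPR, wild-type leaves had more mRNA of 9 of the 10 genes and less of 1, PEPR2. The PEPR2 call lay close to the threshold and was lost under most of the alternative settings that tested it. In pad4 leaves the same treatment gave no call among the 10, where 1 of all 19652 tested genes was called (0.00509%). Without the compound, 7 of the 10 were already lower in pad4 than in wild type, where 17.5% of all tested genes were called lower and 11.7% higher. Genes counted as called had an adjusted p under 0.05 in edgeR's quasi-likelihood test, with Benjamini-Hochberg adjustment over all 19652 genes, and every adjusted p below comes from that test unless another is named. In wild type 69.2% of all tested genes were called, 34.6% higher and 34.6% lower, so a call in itself was common. The 10 genes were chosen with earlier results of these data known, so their counts beside the shares of all genes are a description. In 8 of the 10 genes every treated wild-type library lay above every water library, as in 36.0% of all genes, and in 1 every treated library lay below, as in 35.8%. The median log2 change of the 10 genes was 1.16 in wild type, against -0.015 over all genes tested. In pad4 it was 0.044, against -0.0036 over all genes, and none of the 10 had groups that did not overlap, where 5.58% of all genes lay higher and 7.39% lower in every treated library.

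**Figure D1:**
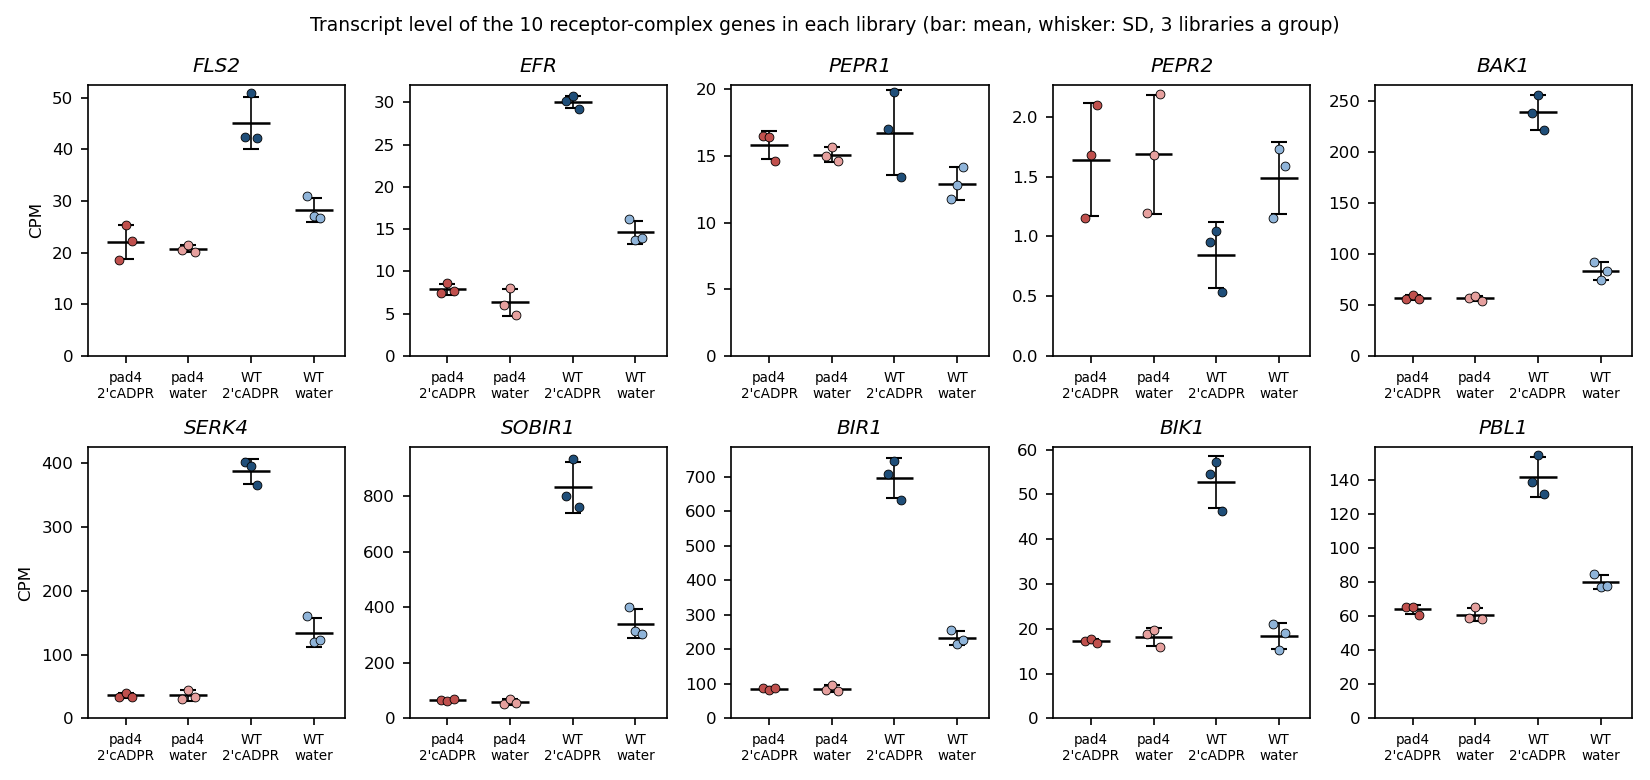
Level of each of the 10 genes in CPM (vertical axis, from 0) in pad4 after 2'cADPR, pad4 after water, wild type after 2'cADPR and wild type after water (left to right); points are libraries, bars the means and whiskers the SD of 3 libraries. For 8 genes the 3 wild-type 2'cADPR libraries lie above the other 9 libraries. For PEPR1 the treated and water libraries overlap within each genotype, and PEPR2 is lowest in the wild-type 2'cADPR libraries.

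The DNA around the annotated start of 9 of the genes was read from the TAIR10.1 assembly, from 250 bases before the start to 50 bases after it. These windows were searched on both strands for the W box (TTGACC or TTGACT), the motif bound by WRKY factors. A W box was present in 6 of these 9 windows, against 32.7% of the windows of the same length at 19018 tested protein-coding genes of the nuclear chromosomes, 40.2% of those of 6744 genes that rose in wild type and 26.6% of those of 6677 genes that fell. The TGACG core of TGA-factor sites was present in 3 of the 9, in EFR, BAK1 and BIK1, against 23.8% of all windows. The letters GAAATTT, bound by CBP60g and SARD1, were found in BIK1 alone among the 9 and in 14.7% of all windows, and the G box CACGTG in PEPR1 alone and in 8.79%. In the 9 windows no match of one motif overlapped a match of another. A match is a description of the letters and not evidence of binding. The upstream 250 bases are printed below, 5′ to 3′ on the strand of the gene, for the 4 of these genes with the largest response in wild type and for PEPR2, whose response was opposite. Lower case is plain sequence and capitals mark W boxes, which read GGTCAA where the box lies on the other strand.

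**Figure D2:**
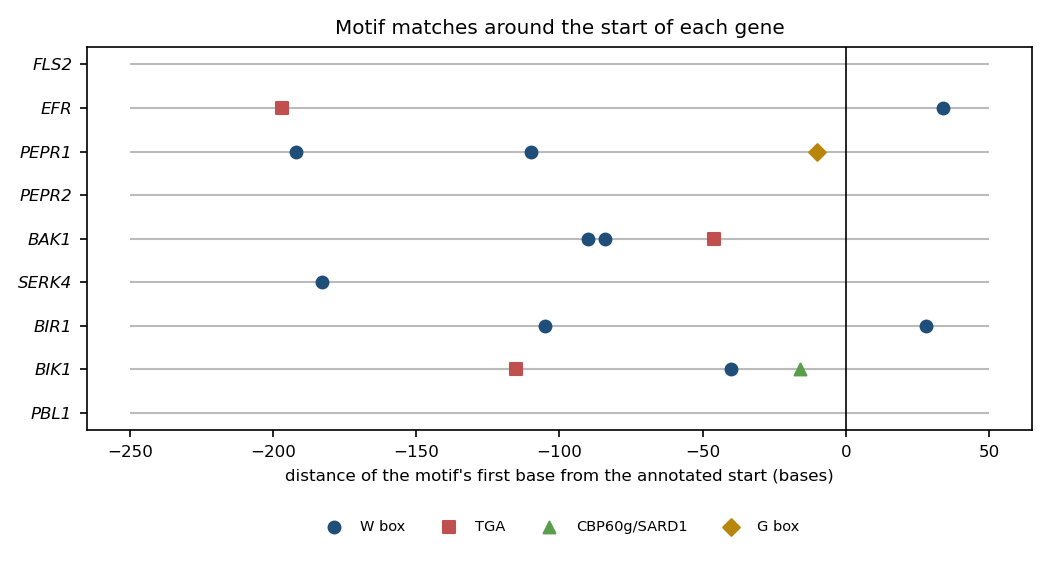
Position of each motif match relative to the annotated start (horizontal axis, bases from the start at 0) for the 9 genes (rows), with a symbol for each motif. The W boxes of PEPR1, BAK1, SERK4 and BIK1 lie between -192 and -40, BIR1 has one at -105 and one at 28, the only one of EFR lies at 34, and FLS2, PEPR2 and PBL1 have none.

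FLS2 and EFR, the receptors of bacterial flagellin and of bacterial elongation factor Tu, both rose after 2'cADPR in wild type. The FLS2 level was 18.6, 25.3 and 22.2 CPM in the pad4 2'cADPR libraries, 20.6, 21.5 and 20.1 CPM in the pad4 water libraries, 42.4, 51.0 and 42.1 CPM in the wild-type 2'cADPR libraries and 30.9, 27.1 and 26.7 CPM in the wild-type water libraries. In wild type every treated library lay above every water library, while the pad4 groups overlapped. The log2 change of FLS2 was 0.68 ± 0.107 in wild type (SE, adjusted p = 4.58e-05) and 0.089 ± 0.109 in pad4, with a 95% interval of -0.14 to 0.32. The EFR level was 7.42, 8.58 and 7.66 CPM in the pad4 2'cADPR libraries, 6.09, 8.07 and 4.86 CPM in the pad4 water libraries, 30.2, 30.7 and 29.2 CPM in the wild-type 2'cADPR libraries and 16.2, 13.7 and 14.0 CPM in the wild-type water libraries. The wild-type groups were apart by more than their whole spread, and the pad4 groups overlapped. EFR changed by 1.04 ± 0.136 on the log2 scale in wild type (adjusted p = 6.52e-06). Its change in pad4 was 0.31 ± 0.145, with a 95% interval of 0.0040 to 0.63, and it was the only one of the 10 with an unadjusted p under 0.05 in pad4 (0.0474, adjusted p = 0.974). In pad4 992 of all tested genes, 5.05%, had an unadjusted p that low. FLS2 lies at chr5:18791575-18795908 on the plus strand, where 172 bases overlap the antisense gene RWA1, and EFR at chr5:6921509-6925901 on the plus strand.

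Both bacterial-pattern receptors were lower in pad4 already after water, where 29.2% of all genes were called. FLS2 differed by -0.44 ± 0.109 on the log2 scale (adjusted p = 0.00615) and EFR by -1.20 ± 0.143 (adjusted p = 1.32e-05). After 2'cADPR the pad4 level was 48.9% of the wild-type level for FLS2 and 26.3% for EFR. The log2 ratio of FLS2 over EFR in CPM was 0.58 after 2'cADPR and 0.95 after water in wild type, lower in all 3 treated libraries than in the water libraries. In pad4 it was 1.48 after 2'cADPR and 1.74 after water, and the groups overlapped (exact two-sided permutation p = 0.3). With 3 libraries against 3 the exact two-sided permutation test cannot give a p below 0.1, the value found in wild type (0.2 adjusted over the 10 ratio comparisons made).

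PEPR1 and PEPR2 encode the paired receptors of the endogenous Pep peptides, and they were called in opposite directions in wild type. The PEPR1 level was 16.5, 16.4 and 14.6 CPM in the pad4 2'cADPR libraries, 15.0, 15.7 and 14.6 CPM in the pad4 water libraries, 17.0, 19.8 and 13.4 CPM in the wild-type 2'cADPR libraries and 11.7, 12.8 and 14.2 CPM in the wild-type water libraries. The wild-type groups overlapped, since the third treated library lay within the range of the water libraries. PEPR1 was called higher in wild type with a log2 change of 0.37 ± 0.125 (adjusted p = 0.0147), and without the second wild-type 2'cADPR library the change was 0.25 and the adjusted p 0.0818. In pad4 the change was 0.069 ± 0.123, with a 95% interval of -0.19 to 0.33. After water every pad4 library lay above every wild-type library, at 117% of the wild-type mean, and the difference of 0.23 ± 0.125 on the log2 scale was not called (adjusted p = 0.203). PEPR1 lies at chr1:27484240-27488204 on the plus strand.

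The PEPR2 level was 1.15, 1.68 and 2.095 CPM in the pad4 2'cADPR libraries, 1.19, 1.68 and 2.19 CPM in the pad4 water libraries, 0.955, 1.05 and 0.533 CPM in the wild-type 2'cADPR libraries and 1.15, 1.73 and 1.59 CPM in the wild-type water libraries. All 3 wild-type 2'cADPR libraries lay below the wild-type water libraries and the pad4 libraries, the lowest level of the 10 genes. PEPR2 fell by 0.82 on the log2 scale in wild type (SE 0.350, adjusted p = 0.0496), close to the threshold. The call was lost under 12 of the alternative settings, most of those that tested PEPR2. The adjusted p was 0.0612 in DESeq2, 0.0626 with the replicate number as a block and 0.185 without the third wild-type 2'cADPR library. PEPR2 was not tested with at least 5 CPM in 3 libraries or in limma on FPKM. In pad4 the change was -0.039 ± 0.333, with a 95% interval of -0.75 to 0.67. After 2'cADPR the pad4 level was 194% of the wild-type level (log2 difference 0.95 ± 0.347, adjusted p = 0.0216), the 1 member higher in pad4 where 37.4% of all genes were called higher. That adjusted p was 0.0901 without the third wild-type 2'cADPR library and 0.0985 without the third pad4 2'cADPR library. The log2 ratio of PEPR1 over PEPR2 in CPM was 4.35 after 2'cADPR and 3.13 after water in wild type, and the groups did not overlap (exact two-sided permutation p = 0.1, the smallest possible). In pad4 it was 3.31 after 2'cADPR and 3.20 after water, and the groups overlapped (exact two-sided permutation p = 0.7). PEPR2 lies at chr1:6106323-6110120 on the plus strand. Antisense genes overlap it, by 739 bases at most, and the sources used here do not say whether counting used the strand. Its upstream sequence holds no W box.
PEPR2, chr1:6106073-6106322, plus strand: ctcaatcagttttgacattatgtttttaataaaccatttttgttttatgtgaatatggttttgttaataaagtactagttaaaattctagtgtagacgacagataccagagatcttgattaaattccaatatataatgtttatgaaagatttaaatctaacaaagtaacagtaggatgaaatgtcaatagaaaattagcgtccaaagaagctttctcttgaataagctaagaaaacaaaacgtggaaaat

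BAK1 and SERK4, the SERK co-receptors that pair with FLS2, EFR and the PEPRs, both rose in wild type. The BAK1 level was 55.7, 60.1 and 55.6 CPM in the pad4 2'cADPR libraries, 57.2, 58.3 and 53.6 CPM in the pad4 water libraries, 238, 256 and 222 CPM in the wild-type 2'cADPR libraries and 92.2, 74.9 and 83.7 CPM in the wild-type water libraries. The treated wild-type libraries were all above 220 CPM, the wild-type water libraries lay below 93 CPM, and the 6 pad4 libraries lay together below 61 CPM. BAK1 changed by 1.51 ± 0.0807 on the log2 scale in wild type (adjusted p = 4.29e-10) and by 0.019 ± 0.0803 in pad4, where the 95% interval was -0.15 to 0.19. The SERK4 level was 33.9, 39.9 and 34.2 CPM in the pad4 2'cADPR libraries, 29.6, 44.7 and 33.2 CPM in the pad4 water libraries, 402, 395 and 365 CPM in the wild-type 2'cADPR libraries and 160.5, 119 and 124 CPM in the wild-type water libraries. The 3 wild-type treated libraries were the highest, the first water library stood above the other 2 of its group, and the pad4 groups overlapped. SERK4 changed by 1.53 ± 0.137 in wild type (adjusted p = 1.04e-07) and by 0.0081 in pad4, with a 95% interval of -0.29 to 0.31. The log2 ratio of SERK4 over BAK1 in CPM was 0.70 after 2'cADPR and 0.68 after water in wild type, and the groups overlapped (exact two-sided permutation p = 0.8). In pad4 it was -0.67 after 2'cADPR and -0.68 after water, and the groups overlapped.

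Both co-receptors were lower in pad4 already without the compound. After water the pad4 level was 67.4% of the wild-type level for BAK1 (adjusted p = 7.24e-05) and 26.6% for SERK4 (adjusted p = 8.65e-08). After 2'cADPR it was 23.9% for BAK1 (adjusted p = 8.18e-12) and 9.29% for SERK4 (adjusted p = 1.85e-11). SERK4 has a neighbouring, similar gene, SERK5, with which reads may have been shared; SERK5 averaged 7.58, 7.68, 25.1 and 11.7 CPM in pad4 after 2'cADPR, pad4 after water, wild type after 2'cADPR and wild type after water. BAK1 lies at chr4:16086311-16090832 on the minus strand and SERK4 at chr2:5741592-5746833 on the plus strand. The antisense gene AT4G33420, at a mean of at most 0.924 CPM in any group, overlaps 78 bases of BAK1. BAK1 has W boxes in tandem, at -90 and -84, and SERK4 has 1 at -183.
BAK1, chr4:16090833-16091082, minus strand: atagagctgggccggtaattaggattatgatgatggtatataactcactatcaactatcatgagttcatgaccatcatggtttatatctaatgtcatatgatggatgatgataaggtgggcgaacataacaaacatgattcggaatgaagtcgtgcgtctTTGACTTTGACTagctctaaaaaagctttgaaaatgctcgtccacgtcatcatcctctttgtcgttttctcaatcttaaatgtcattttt
SERK4, chr2:5741342-5741591, plus strand: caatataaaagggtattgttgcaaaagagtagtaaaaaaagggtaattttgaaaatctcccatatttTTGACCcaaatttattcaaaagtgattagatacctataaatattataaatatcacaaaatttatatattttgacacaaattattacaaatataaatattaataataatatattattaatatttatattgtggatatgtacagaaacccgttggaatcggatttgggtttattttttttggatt

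SOBIR1, the adaptor kinase of receptor-like proteins that lack a kinase domain, had the highest level per transcript length of the 10 in wild type. BIR1, a BAK1-interacting kinase whose loss is known to cause autoimmunity that needs SOBIR1, rose with it. The SOBIR1 level was 66.4, 61.0 and 69.0 CPM in the pad4 2'cADPR libraries, 50.3, 70.1 and 54.6 CPM in the pad4 water libraries, 801, 935 and 761 CPM in the wild-type 2'cADPR libraries and 400.5, 316 and 305 CPM in the wild-type water libraries. The pad4 libraries were all below 71 CPM and every wild-type library was above 300 CPM. The treated libraries of wild type all exceeded its water libraries, and the pad4 groups overlapped. SOBIR1 changed by 1.29 ± 0.128 on the log2 scale in wild type (adjusted p = 3.13e-07) and by 0.17 ± 0.128 in pad4, with a 95% interval of -0.11 to 0.44. The BIR1 level was 88.7, 80.8 and 88.2 CPM in the pad4 2'cADPR libraries, 81.4, 97.2 and 80.7 CPM in the pad4 water libraries, 710.2, 746 and 632 CPM in the wild-type 2'cADPR libraries and 256, 216 and 226 CPM in the wild-type water libraries. Treated wild-type libraries exceeded all water libraries, and the pad4 groups overlapped. BIR1 had the largest wild-type change of the 10, 1.58 ± 0.0930 (adjusted p = 1.14e-09), with -0.0085 in pad4 and a 95% interval of -0.21 to 0.19.

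The genotype difference of SOBIR1 and BIR1 was among the largest of the set both with and without the compound. After water the pad4 level was 17.1% of wild type for SOBIR1 (log2 -2.54 ± 0.134, adjusted p = 3.60e-09) and 37.1% for BIR1 (log2 -1.43 ± 0.0933, adjusted p = 2.38e-08). After 2'cADPR it was 7.87% for SOBIR1 (adjusted p = 5.54e-12) and 12.3% for BIR1 (adjusted p = 1.31e-12). The log2 ratio of BIR1 over SOBIR1 in CPM was -0.26 after 2'cADPR and -0.54 after water in wild type, higher in all treated libraries. In pad4 it was 0.39 after 2'cADPR and 0.58 after water, lower in all treated libraries, and both tests gave the smallest possible p of 0.1 (exact two-sided permutation). SOBIR1 lies at chr2:13554870-13556977 on the plus strand and shares 478 of its 2108 bases with the antisense gene RAP. RAP averaged 35.2, 36.6, 18.9 and 30.2 CPM in pad4 after 2'cADPR, pad4 after water, wild type after 2'cADPR and wild type after water, and the share of such reads in the SOBIR1 counts was not tested. BIR1 lies at chr5:19604089-19607147 on the minus strand. Its upstream W box, at -105, is on the opposite strand.
BIR1, chr5:19607148-19607397, minus strand: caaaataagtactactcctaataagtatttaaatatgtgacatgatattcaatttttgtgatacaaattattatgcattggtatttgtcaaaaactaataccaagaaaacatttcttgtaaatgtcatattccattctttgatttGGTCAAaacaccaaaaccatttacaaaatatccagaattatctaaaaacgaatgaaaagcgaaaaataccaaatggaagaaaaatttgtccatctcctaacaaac

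BIK1 and PBL1, the receptor-like cytoplasmic kinases that carry the signal from the receptor complex to targets such as the oxidase RBOHD, both rose in wild type. The BIK1 level was 17.4, 17.8 and 16.8 CPM in the pad4 2'cADPR libraries, 18.8, 19.6 and 15.9 CPM in the pad4 water libraries, 54.6, 57.3 and 46.3 CPM in the wild-type 2'cADPR libraries and 21.0, 15.3 and 19.0 CPM in the wild-type water libraries. In this gene the water libraries of both genotypes overlapped with each other and with treated pad4, and only the wild-type 2'cADPR libraries stood apart. BIK1 changed by 1.51 ± 0.116 on the log2 scale in wild type (adjusted p = 1.78e-08) and by -0.066 ± 0.116 in pad4, with a 95% interval of -0.31 to 0.18. After water the difference of pad4 from wild type was -0.025 ± 0.117, with a 95% interval of -0.27 to 0.22 (adjusted p = 0.902). The PBL1 level was 65.6, 65.8 and 60.8 CPM in the pad4 2'cADPR libraries, 58.9, 65.3 and 58.6 CPM in the pad4 water libraries, 139, 155 and 132 CPM in the wild-type 2'cADPR libraries and 84.9, 77.4 and 78.1 CPM in the wild-type water libraries. The wild-type treated libraries were the highest, followed by the wild-type water libraries. PBL1 changed by 0.83 ± 0.0734 in wild type (adjusted p = 9.55e-08) and by 0.073 ± 0.0737 in pad4, with a 95% interval of -0.085 to 0.23. After water PBL1 was at 76.0% of wild type in pad4 (adjusted p = 8.49e-04). The log2 ratio of PBL1 over BIK1 in CPM was 1.43 after 2'cADPR and 2.13 after water in wild type, lower in all treated libraries (exact two-sided permutation p = 0.1). In pad4 it was 1.89 after 2'cADPR and 1.75 after water, and the groups overlapped (exact two-sided permutation p = 0.2). After 2'cADPR the pad4 level was 32.8% of wild type for BIK1 and 45.1% for PBL1. BIK1 lies at chr2:16531527-16533986 on the plus strand and PBL1 at chr3:20557644-20560235 on the plus strand. BIK1 has its W box at -40, and further upstream a TGACG core at -115 on the other strand.
BIK1, chr2:16531277-16531526, plus strand: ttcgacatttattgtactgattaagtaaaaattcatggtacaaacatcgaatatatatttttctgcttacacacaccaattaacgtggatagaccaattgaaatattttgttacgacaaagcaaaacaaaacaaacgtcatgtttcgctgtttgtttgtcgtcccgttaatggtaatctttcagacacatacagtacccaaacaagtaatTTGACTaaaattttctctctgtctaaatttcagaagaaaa

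The test of the difference between the responses, pad4 minus wild type, was passed by 8 of the 10 genes, all in the negative direction, where 57.6% of all genes were called, 28.2% in that direction and 29.4% in the other. The largest differences were -1.59 ± 0.130 for BIR1 (adjusted p = 1.10e-07), -1.58 ± 0.164 for BIK1 (adjusted p = 1.08e-06), -1.52 ± 0.194 for SERK4 (adjusted p = 9.09e-06) and -1.49 ± 0.113 for BAK1 (adjusted p = 5.19e-08) on the log2 scale. SOBIR1 differed by -1.12 ± 0.180 (adjusted p = 8.07e-05) and PBL1 by -0.75 ± 0.104 (adjusted p = 1.93e-05). The receptors EFR (-0.72 ± 0.199, adjusted p = 0.00581) and FLS2 (-0.59 ± 0.153, adjusted p = 0.00406) had the smallest differences of the 8. PEPR1 (-0.31 ± 0.175, adjusted p = 0.152) and PEPR2 (0.78 ± 0.483, adjusted p = 0.184) did not pass. Without the third wild-type 2'cADPR library the PEPR1 difference was -0.46 and passed, with an adjusted p of 0.0151. The median over the 10 was -0.94, against 0.0097 over all genes.

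After water the 7 called genes were SOBIR1, SERK4, BIR1, EFR, BAK1, FLS2 and PBL1, all lower in pad4, and the median of the 10 was -0.51 against 0.0017 over all genes. The pad4 libraries lay below all wild-type libraries for these 7, as for 23.5% of all genes, and above them for 1, PEPR1, as for 20.2%. BIK1, PEPR1 and PEPR2 were not called. After 2'cADPR 9 of the 10 were called, 8 lower and 1 higher in pad4, where 74.2% of all genes were called, 36.8% lower and 37.4% higher. The pad4 libraries lay below all wild-type libraries for 8 (38.3% of all genes) and above them for PEPR2 (38.8% of all genes). The median was -1.77 against 0.021 over all genes. In pad4 the effect of 2'cADPR was called for 1 gene of all 19652 (0.00509%), FAMT, which is not among the 10 and was named after its values were seen. For the 10 the count was 0 in edgeR and DESeq2, with 1 gene at an unadjusted p under 0.05 in edgeR. In limma on FPKM it was 0 of the 9 genes tested there, without PEPR2, whose mean lay under the minimum of 1 FPKM. The comparisons share libraries: both genotype differences and both responses use the same 4 groups.

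**Figure D3:**
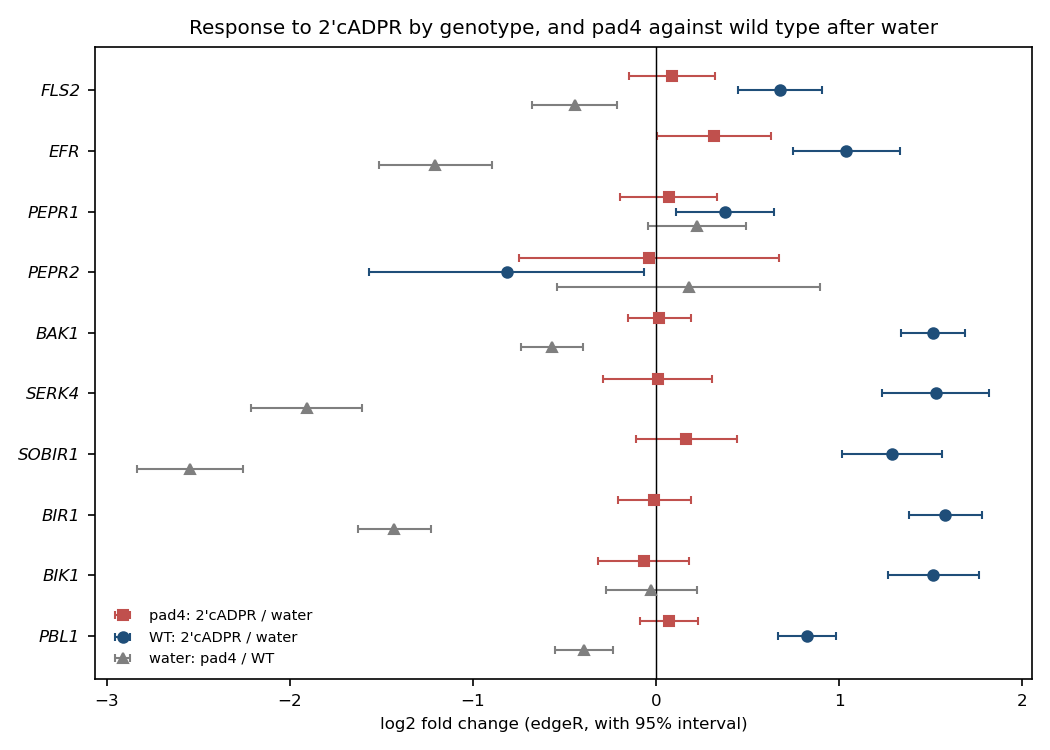
Log2 fold change with its 95% interval (horizontal axis, edgeR) of the 10 genes (rows) for the response to 2'cADPR in pad4 and in wild type and for pad4 against wild type after water. The pad4 responses lie near 0, the wild-type responses run from -0.82 for PEPR2 to 1.58 for BIR1, and the water difference is largest for SOBIR1, at -2.54.

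Levels between genes were compared as FPKM, which divide counts by transcript length. In wild type after 2'cADPR the order was SOBIR1 (391 ± 38.7 FPKM, SD, n = 3), BIR1 (239.6 ± 17.9), SERK4 (152 ± 6.90), BAK1 (81.2 ± 5.03), PBL1 (68.2 ± 4.93), BIK1 (25.9 ± 2.62), FLS2 (10.4 ± 1.05), EFR (6.83 ± 0.116), PEPR1 (4.28 ± 0.776) and PEPR2 (0.222 ± 0.0705). No neighbours in that order overlapped between libraries. The receptors stood below the co-receptors and adaptors in level per length. After water in wild type PBL1 (38.6 ± 3.22 FPKM) came before BAK1 (28.6 ± 3.67), and only EFR (3.34 ± 0.411) and PEPR1 (3.30 ± 0.216) overlapped.

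In pad4 the order at the top was not that of wild type. After 2'cADPR PBL1 (32.3 ± 1.67 FPKM, SD, n = 3), SOBIR1 (32.3 ± 1.61) and BIR1 (31.0 ± 1.18) overlapped, ahead of BAK1 (20.4 ± 1.22) and SERK4 (14.8 ± 1.61). After water BIR1 (30.8 ± 3.66 FPKM), PBL1 (30.3 ± 2.19) and SOBIR1 (28.4 ± 5.43) overlapped again. BIK1 followed at 8.95 ± 0.346 FPKM after 2'cADPR and 9.23 ± 0.995 FPKM after water. FLS2 (5.34 ± 0.881 FPKM) overlapped PEPR1 (4.25 ± 0.315) after 2'cADPR, and EFR (1.88 ± 0.173 FPKM) and PEPR2 (0.455 ± 0.131) were last. After water FLS2 had 4.95 ± 0.210 FPKM, PEPR1 3.99 ± 0.173, EFR 1.49 ± 0.391 and PEPR2 0.461 ± 0.140.

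**Figure D4:**
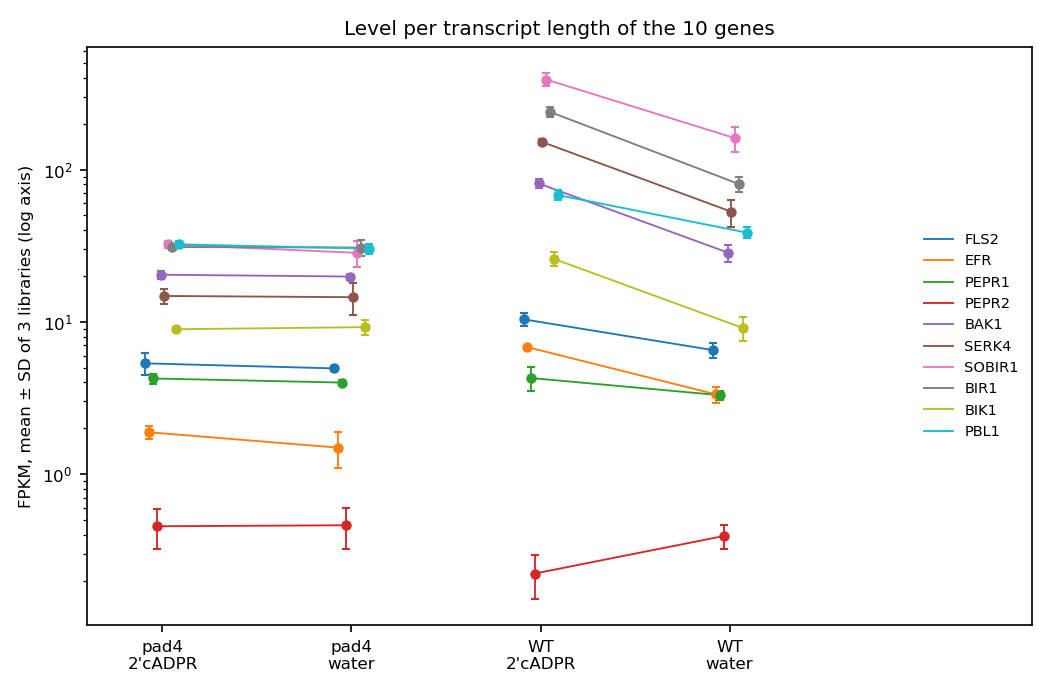
Level per transcript length in FPKM (vertical log axis, mean ± SD of 3 libraries) of the 10 genes, one line a gene, in pad4 after 2'cADPR, pad4 after water, wild type after 2'cADPR and wild type after water. In wild type after 2'cADPR the levels span 0.222 FPKM (PEPR2) to 391 FPKM (SOBIR1), and the pad4 groups run nearly level.

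As a description over the 12 libraries, the log2 CPM of PBL1 had a Pearson r of 0.985 with the mean profile of the other members, BAK1 0.975, FLS2 0.970, BIR1 0.961, EFR 0.946, SERK4 0.941, BIK1 0.914 and SOBIR1 0.907. PEPR1 (0.209) and PEPR2 (-0.711) did not follow it. The libraries fall into 4 groups, which these points share.

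Other genes of the pathway were read from 6 lists, with counts of called members in wild type after 2'cADPR against water. Of all tested genes 34.6% were called higher and 34.6% lower in this comparison, with a median log2 change of -0.015, and each count below is to be read against these shares. The lists were chosen with earlier results of these data known, so the counts beside the shares are a description and not a test. Of the precursors of the Pep peptides, PROPEP1 to PROPEP6, 5 were tested, 2 rose and 2 fell. PROPEP2 had 95 summed counts in wild type after 2'cADPR and 4 after water, with 0 and 0 in pad4. PROPEP3 had 259 summed counts in wild type after 2'cADPR and 25 after water, with 3 and 4 in pad4, while PROPEP1 fell by 1.47 on the log2 scale (adjusted p = 0.00319). Of the other SERK and BIR kinases, 5 of 6 were in the table, 2 rose and 3 fell, with a median log2 change of -0.74. SERK2, a SERK kinase known from development, had 28.5 ± 1.09 CPM in pad4 after 2'cADPR, 31.1 ± 4.55 CPM in pad4 after water, 3.16 ± 0.519 CPM in wild type after 2'cADPR and 19.4 ± 0.727 CPM in wild type after water (SD, n = 3 each). It thus changed in wild type in the direction opposite to BAK1 and SERK4 (log2 -2.62, adjusted p = 1.67e-10), as did SERK1 (log2 -2.44, adjusted p = 4.25e-05). The SERK1 level was low, with means of 0.33 CPM after 2'cADPR and 1.78 CPM after water in wild type. BIR2, which holds BAK1 away from FLS2 in the absence of ligand, rose by 1.22 (adjusted p = 1.17e-08).

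Among 10 other leucine-rich repeat receptor kinases 7 rose and 2 fell, with a median of 1.55. FRK1, a gene widely used as a marker of pattern-triggered signalling, averaged 3.74 CPM in pad4 after 2'cADPR, 2.65 CPM in pad4 after water, 318 CPM in wild type after 2'cADPR and 12.9 CPM in wild type after water. Its log2 change in wild type was 4.63 ± 0.297 (SE, adjusted p = 2.77e-09). IOS1, a malectin-like receptor kinase that associates with BAK1, rose by 3.31 and AT1G74360 by 2.68. Of 11 other receptor-like cytoplasmic kinases 10 rose and none was called lower, with a median of 1.17. AT5G35580 rose by 3.77, AT4G17660 by 2.80 and RIPK, a kinase that phosphorylates RIN4 and RBOHD, by 1.97.

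Of 19 regulators of receptor complexes 14 rose and 5 fell, with a median of 0.81. PUB23, a ubiquitin ligase that restrains pattern signalling, rose by 1.97, and XLG2, an extra-large G protein coupled to FLS2 and BIK1, rose by 1.96. PUB25, a ubiquitin ligase that acts on BIK1, fell by 2.38. Of 5 genes listed for EFR folding in the endoplasmic reticulum, 4 rose, with a median of 1.07. CRT3, a calreticulin, averaged 115 CPM in pad4 after 2'cADPR, 108 CPM in pad4 after water, 1068 CPM in wild type after 2'cADPR and 408 CPM in wild type after water, with a log2 change of 1.39 in wild type. SDF2 rose by 1.13 and UGGT by 1.07. In pad4 the count of called genes over the 6 lists was 0 of 55 tested in edgeR, 0 of 54 in DESeq2 and 0 of 51 in limma on FPKM. Of the 55, 2 (3.64%) had an unadjusted p under 0.05 in edgeR, against 5.05% of all genes, and over all genes 1 (0.00509%) was called. After water the members called lower in pad4 were 1 of 5 PROPEP genes, 2 of 5 SERK and BIR genes and 8 of 10 receptor kinases. So were 8 of 11 cytoplasmic kinases, 9 of 19 regulators and 4 of 5 genes of the EFR folding list. Of all genes 17.5% were called lower there. Those called higher in pad4 were SERK2 (log2 0.68), BRI1 (0.44), the brassinosteroid receptor, and PUB25 (0.85), where 11.7% of all genes were. BRI1 was named after its values were seen.

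**Figure D5:**
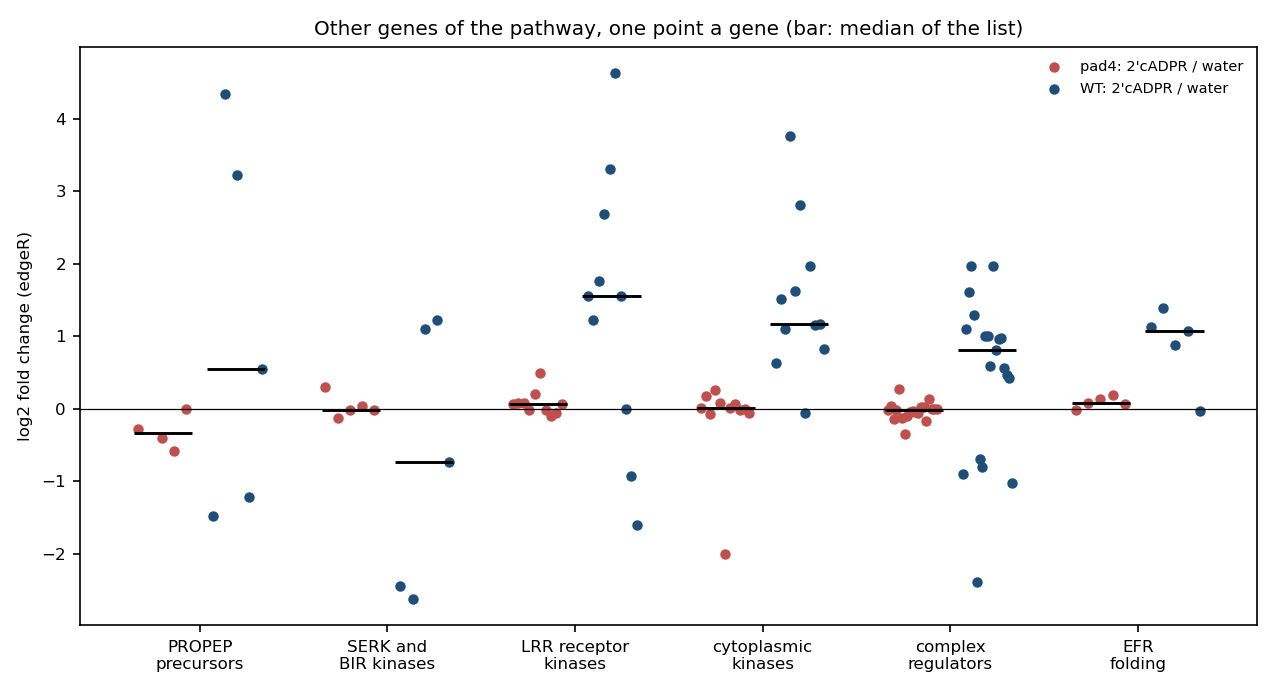
Log2 fold change after 2'cADPR (vertical axis, edgeR) of the tested members of the 6 pathway lists, one point a gene, pad4 left and wild type right, with a bar at the median of the list. Wild-type points spread on both sides of 0, up to 4.63 for FRK1; PROPEP2, with no counts in pad4, has no pad4 point, and the pad4 point of AT4G17660 rests on 2 and 9 counts.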

How the data were processed

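Per the labels, rosette leaf RNA was extracted with TRIzol and sequenced from SMARTER mRNA-seq libraries. The submitters' processing notes name fastp, HISAT, HTSeq and the build TAIR10; the sources used here give no versions, settings or strand. The authors' raw read counts per gene were deposited as whole numbers. The deposited FPKM table holds values the authors scaled by gene length and library total; implied lengths equalled summed exon lengths of TAIR10.1 for 20598 of 20602 genes, rounded to the nearest base. All 24 single-sample files equalled these tables. No 2 libraries were identical.

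Counts were fitted in R 4.3.3 with edgeR 4.0.16: filterByExpr by group (minimum count 10), TMM factors (0.955 to 1.04), a mean for each of the 4 groups over all 12 libraries, and two-sided quasi-likelihood F-tests with Benjamini-Hochberg adjustment over 19652 genes, which held 99.98% of counts. A log2 change had a median SE of 0.118 for pad4, 0.120 for wild type and 0.168 for the interaction. The script was tested on simulated data. Alternatives were DESeq2 1.42.0, RLE factors, no filter or at least 5 CPM in 3 libraries, only the groups compared, a replicate block, each library left out, and limma 3.58.1 on log2(FPKM + 0.1) for genes with a mean of at least 1 FPKM.

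The 10 genes and the pathway lists were chosen with earlier results of these data known. Named genes were the 10, PAD4, up to 3 members per list with the largest absolute change among those called in wild type, any called in pad4, and the 5 other genes with a mean of at least 5 CPM most correlated with the members. Some list genes had no symbol in the reference table and are given by locus code. The upstream sequence of 1 of the 10 genes is not reported here.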

Additional observations from a re-analysis of the deposited data

Results flagged for a closer look

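The response to 2'cADPR differed between pad4 and wild type by the test of the difference itself (edgeR interaction term, adjusted p under 0.05) for the genes below, given as the pad4 response minus the wild-type response in log2. Among the receptors the difference was -0.59 for FLS2 and -0.72 for EFR. For the co-receptors and adaptors it was -1.49 for BAK1, -1.52 for SERK4, -1.12 for SOBIR1 and -1.59 for BIR1. For the cytoplasmic kinases it was -1.58 for BIK1 and -0.75 for PBL1. Of all tested genes 57.6% passed this test, 28.2% in the negative direction and 29.4% in the other.

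In the pathway lists the difference was negative for PROPEP3 (-3.63, resting on 3 and 4 summed counts in pad4), BIR2 (-1.18), AT1G74360 (-2.69), IOS1 (-3.11) and FRK1 (-4.13). It was also negative for AT5G35580 (-3.51, resting on 16 and 13 summed counts in pad4) and AT4G17660 (-4.81, resting on 2 and 9 summed counts in pad4). The same held for RIPK (-1.91), PUB23 (-1.99), XLG2 (-2.03), SDF2 (-1.15), CRT3 (-1.30) and UGGT (-0.88). It was positive for SERK1 (2.74, at a low level), SERK2 (2.50) and PUB25 (2.25), which fell in wild type.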

How the results depend on the processing

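The count of the 10 genes called was 0 in pad4 and 7 for the water difference under every alternative run, 9 to 10 in wild type, 8 to 9 for the difference of responses and 8 to 9 after 2'cADPR. The fit of limma on FPKM and the fit with at least 5 CPM in 3 libraries held 9 of the 10, without PEPR2. In those fits PEPR2 was untested, so its absence there is not a lost call. The calls that moved were those of PEPR1 and PEPR2. Over all genes, the pad4 response gave 1 call, 29 in DESeq2, 2 with only the groups compared, and 1 to 3 with a library left out; the cause was not tested. Uncalled changes near 0 turned sign. BIK1 after water was 0.000368 in DESeq2, 0.000674 with RLE factors and 0.028 in limma on FPKM, and -0.14 to 0.087 with a library left out. In limma BIR1 in pad4 was 0.016 and PEPR1 after 2'cADPR 0.00385, the second -0.23 to 0.054 with a library left out. With a library left out the pad4 response was -0.019 to 0.045 for BAK1, -0.055 to 0.085 for BIR1, -0.022 to 0.20 for FLS2, -0.25 to 0.19 for PEPR2 and -0.11 to 0.20 for SERK4, and the PEPR2 water difference -0.054 to 0.37. The ratio difference was -0.16 to 0.36 for PEPR1 over PEPR2 in pad4, and for SERK4 over BAK1 -0.035 to 0.084 in wild type and -0.13 to 0.15 in pad4.

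Same-numbered libraries deviated together with correlations of -0.188 to 0.224 over 14071 genes. Of 6 libraries in a comparison, 4 correlated best with their own number for the wild-type response and 3 for the pad4 response. The count was 0 for the water difference and 4 for the genotype difference after 2'cADPR. These counts do not decide whether the numbers mark pairs, and the main fit did not take them as pairs. With the replicate block 13468 genes were called in wild type, against 13608 without it, and the PEPR2 change there was -0.78 (adjusted p = 0.0626). PEPR2, at about 1 CPM, had the largest SE of the 10 (0.350 in wild type).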

Other observations

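Of 14062 other genes with a mean of at least 5 CPM, the 5 whose log2 CPM over the 12 libraries correlated best with the mean standardised profile of the 10 genes were AT1G62305 (Pearson r 0.992), AtIPCS2 (0.990, an inositol phosphorylceramide synthase), HSFA1D (0.990, a heat shock factor), AT4G07390 (0.989) and AT1G75000 (0.989). In all 3677 genes had an r over 0.9, so a high r is common where libraries fall into 4 groups. In wild type the log2 changes after 2'cADPR were 1.45 for AT1G62305, 1.18 for AtIPCS2, 0.91 for HSFA1D, 0.57 for AT4G07390 and 1.77 for AT1G75000.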
